A study of Mus musculus with 32 samples.

Results

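The genes described here are 37 subunits of voltage-gated sodium, calcium, and potassium channels, with the related BK and HCN channels, taken by name from the 49671 genes of the count table, in cultured cortical neurons of mice. All 37 were found by their Ensembl identifiers, and all 37 passed the filter on low counts at 6 h, at 5 d, and over both time points. The neurons came from the forebrains of wild-type C57BL/6 mouse embryos shortly before birth and were kept in Neurobasal medium with B27 supplement. They were left untreated or received miR-92a-1-5p, Mut.oligo, or miR-124-5p, each at the same concentration, and RNA was taken after 6 h or 5 d. This gives 8 groups of 4 libraries, which the labels name biological replicates. Values of the exposed groups are listed with miR-92a-1-5p first, miR-124-5p next, and Mut.oligo last. The oligoribonucleotides were synthetic, with a phosphate on the first base and phosphorothioate bonds, and Mut.oligo is a mutated let-7b that served as the sequence control. All groups share the genotype and the medium. The labels do not say whether replicates came from different litters, so the p-values measure the spread between these libraries.

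Voltage-gated channels open when the membrane potential changes. Sodium channels carry the upstroke of the action potential, calcium channels turn electrical activity into calcium entry at the soma, the dendrites, and the presynaptic terminal, and potassium channels repolarize the membrane and set how fast and how regularly a neuron fires. Most sodium and calcium channels are built around 1 large pore-forming alpha subunit with smaller auxiliary subunits, whereas potassium channels assemble several pore subunits of 1 family. In cortical neurons, many of these genes are known to change their expression as the cells mature and become excitable.

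A seed match in a 3′ UTR is the feature by which a miRNA can recognize an mRNA inside a cell. The mature sequence of miR-92a-1-5p is therefore printed in its RefSeq form (GRCm38.p6, chr14:115044437-115044459, forward strand), with the seed, bases 2 to 8, in capitals.
miR-92a-1-5p: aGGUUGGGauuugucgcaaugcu
A match to this seed is the 7 letters CCCAACC on the transcript. In the GENCODE M21 annotation of GRCm38, 13 of the 37 channel genes (35.1%) held at least 1 such match in their longest annotated 3′ UTR, against 1554 of 15179 other tested genes (10.2%). The 3′ UTRs of the channel genes were also longer, with a median of 3181 bases against 1172 bases, and per kilobase there were 0.0983 matches in the channel genes and 0.0716 in the other genes. The matches of 5 channel genes with values in every library are printed to show their sequence context, with 10 bases of 3′ UTR on either side and the seed match in capitals, in the 5′ to 3′ direction of the transcript. They lie in the 3′ UTR of Cacna1e (the match at chr1:154397534-154397540, reverse strand), Cacna1c (chr6:118591019-118591025, reverse), Kcna2 (chr3:107109532-107109538, forward), Hcn2 (chr10:79735771-79735777, forward), and at 2 places in that of Kcnc1 (chr7:46429212-46429218 and chr7:46429703-46429709, forward).
The Cacna1e match: tagcaagggcCCCAACCccagaagggt
The Cacna1c match: cagtgtcatgCCCAACCcaccctcctt
The Kcna2 match: ccccttacttCCCAACCcaggctccca
The Hcn2 match: gtgcctcagcCCCAACCtgggacaggg
The first Kcnc1 match: tacaagacatCCCAACCacttacccac
The second Kcnc1 match: gattcaccctCCCAACCcagacattta
The other channel genes with a match were Cacna1i, Cacnb1, Cacnb2, Kcnb2, Kcnc4, Kcnq5, Scn1a, and Scn8a. Of these, Cacnb1, Kcnc4, and Scn1a also have values in every library, and their matches are not printed. With miR-92a-1-5p, the median log2 fold change against untreated was 0.0240 in the channel genes with a match and 0.0474 in those without at 6 h, and 0.0507 and 0.0392 at 5 d. A match is a match of letters and was not tested as a binding site, and the sequence of miR-124-5p was not analysed here.

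The 32 libraries held 24514090 to 73626029 counts, with medians of 33021610 at 6 h and 50126395 at 5 d. CPM are normalised read counts per 1000000, scaled by TMM. The floor used here, 3 counts, corresponds to 0.0407 to 0.122 counts per 1000000 of the library totals, without the TMM scaling. This floor takes account of counting error alone. The 8 markers of neurons were found in every group, with summed levels of 5152 to 7931 CPM over all libraries at 5 d and 6100 to 7106 CPM at 6 h, and no marker was at 0 in any group. Over the 37 channel genes, the summed level was 2605 to 3059 CPM at 6 h and 2813 to 4211 CPM at 5 d. The lowest sums at 5 d belonged to miR-124-5p replicate 1 (2813 CPM) and untreated replicate 3 (2954 CPM). In miR-124-5p replicate 1 and Mut.oligo replicate 3 at 5 d, protein-coding genes with exons over 8000 bases were low relative to those under 2000 bases, by 0.49 and 0.26 on the log2 scale against the mean of the time point, where the other libraries lay between -0.13 and 0.15. Results at 5 d are given also without 3 libraries, a choice made after the data were seen. These were miR-124-5p replicate 1 and Mut.oligo replicate 3, for their long genes, and untreated replicate 3. In untreated replicate 3 the long genes were not low (-0.02 on this scale), and it was chosen for its low sum over the channel genes. Each label names an experiment batch, and no batch holds libraries of both time points, so that batch and time cannot be told apart. At 6 h, 6 of the 14 libraries that share their batch with another group were most like a library of another batch, by deviations of log2 CPM from the mean of the time point. They were untreated replicate 1, Mut.oligo replicates 2 and 3, miR-124-5p replicate 2, and miR-92a-1-5p replicates 2 and 3. The fit with the batch is given with and without the 2 Mut.oligo libraries, which were chosen after the data were seen, and was not run without the other 4.

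Per kilobase of exons, the channel genes of untreated neurons spanned more than 2 orders of magnitude. Their lengths, 3195 to 25228 bases, are the union of all annotated exons, so that genes with many unused exons read too low on this scale. At 5 d, the highest level per kilobase was that of Scn3b, a sodium channel beta subunit, with 69.9 ± 4.98 CPM per kb (SD, n = 4). Cacnb3, a beta subunit that brings calcium channels to the membrane, followed with 31.4 ± 5.73, then Scn2a, the pore of Nav1.2, with 23.4 ± 3.83, Cacna2d1, an alpha2delta subunit, with 22.4 ± 4.27, and Cacna1b, the pore of the N-type channel of presynaptic terminals, with 22.2 ± 4.17 CPM per kb. The spreads of these last 3 genes overlap with each other and with that of Cacnb3, so that the order of these genes below Scn3b is not resolved. The lowest levels were those of Scn4b with 0.212 ± 0.0881, Cacnb2 with 1.18 ± 0.166, and Scn1a, the pore of Nav1.1 and known from fast-spiking interneurons, with 2.24 ± 0.174 CPM per kb.

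In the other subfamilies, the highest members per kilobase at 5 d were Kcnd2 with 16.2 ± 1.49, the pore of the A-type channel Kv4.2 of dendrites, Hcn2 with 15.9 ± 1.14, a pacemaker channel opened by hyperpolarization, and Kcnq3 with 12.1 ± 4.14, a subunit of the M-current. Cacna1h, the T-type channel Cav3.2, had 8.93 ± 2.03, Kcnc1, the Kv3.1 pore of fast-spiking cells, 7.94 ± 0.853, and Kcna2, a Kv1 subunit of axons, 5.56 ± 0.426 CPM per kb. Kcnq5 at 11.8 ± 1.60 and Kcnq3 lay within each other's spread. The ranges of mean ± SD also overlapped for Cacna1h and Cacna1i and for Kcnc1 and Kcnc4, so that these ranks are not resolved. At 6 h, Scn3b and Cacnb3 were the 2 highest as well, at 48.9 ± 5.60 and 47.0 ± 4.56 CPM per kb, without separation of their ranges of mean ± SD.

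**Figure D1:**
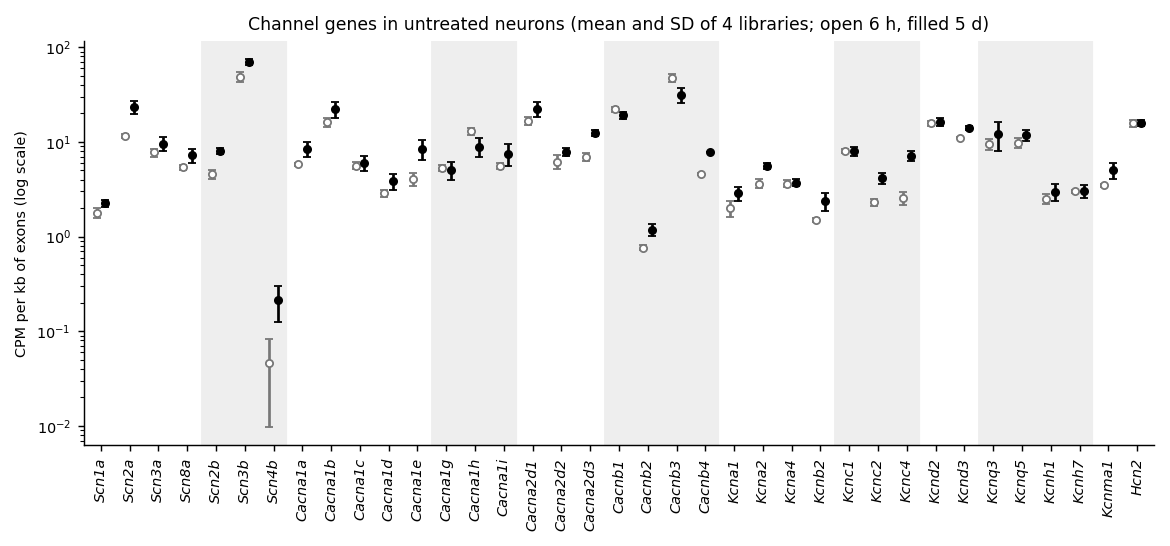
Level of each of the 37 channel genes in untreated neurons, as CPM per kb of exons on a log axis, with open points for 6 h and filled points for 5 d (mean and SD of 4 libraries) and shading that separates the 11 subfamilies. Scn3b and Cacnb3 stand at the top and Scn4b at the bottom at both time points.

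Between 6 h and 5 d, most channel genes of untreated neurons were higher at 5 d. A gene was called deregulated when its p, adjusted over all 20425 genes by the Benjamini-Hochberg method after edgeR's quasi-likelihood test, was under 0.05 and it moved by more than 0.5 on the log2 scale. By this rule, 15 of 37 were upregulated and 2 downregulated, where 19.1% of all tested genes were upregulated and 14.3% downregulated. The median log2 fold change was 0.43 over the channel genes and 0.04 over all genes. Every untreated library at 5 d was above every one at 6 h for 16 of the 37 genes and below for 2, and this held for 23.6% and 24.3% of all genes. Without a minimum fold change, 26 of 37 passed, against 54.7% of all genes, with 23 higher and 3 lower. The 15 upregulated genes spread over 8 of the 11 subfamilies. Of the 17 called genes, 12 were called whichever untreated library was left out. Without untreated replicate 3 at 5 d, 21 genes were upregulated and 0 downregulated. Without the 3 libraries named above these counts were 21 and 0 as well, with all 15 still among the 21. Untreated replicate 3 is among the 3 for its low level of these same genes. Leaving it out raises the change to 5 d by construction, so that the higher counts are not an independent check. The shares of all genes in the fits with left-out libraries are not given here.

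**Figure D2:**
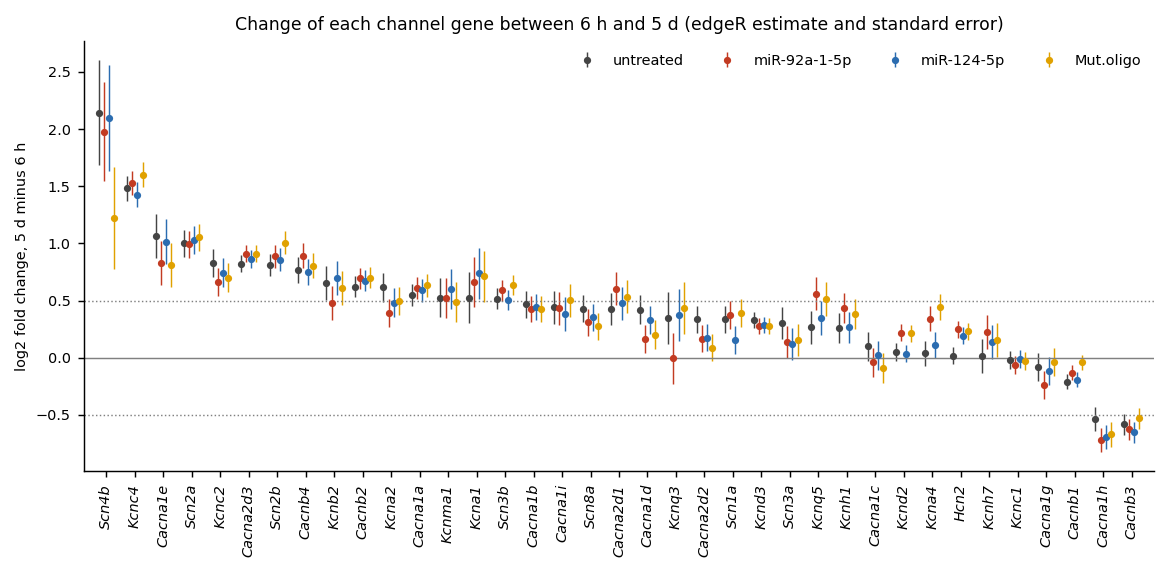
Log2 fold change of each channel gene from 6 h to 5 d, ordered by its value in untreated neurons, with 1 point and standard error per group (edgeR, 4 libraries per group and time point) and dotted lines at 0.5 and -0.5. Scn4b, Kcnc4, Cacna1e, and Scn2a stand highest, and Cacna1h and Cacnb3 are the only genes below -0.5, in all 4 groups.

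Gene positions are those of GENCODE M21 on GRCm38. Among the sodium channel pores, Scn2a (ENSMUSG00000075318, chromosome 2, 65620771 to 65767447, forward strand) encodes Nav1.2, the channel of the immature axon initial segment and of unmyelinated axons. In untreated neurons its level was 148, 143, 159, and 143 CPM in the 4 libraries at 6 h. The 5 d libraries had 298, 346, 231, and 314 CPM. The groups do not overlap, and replicate 3 is the lowest at 5 d. The gene was upregulated (log2 fold change 1.00, standard error 0.120, adjusted p = 3.86e-08, edgeR), and its log2 fold change stayed between 0.952 and 1.10 when single untreated libraries were left out. Scn8a, the Nav1.6 channel that takes over the mature initial segment, went from 84.7 ± 4.98 to 114 ± 18.7 CPM (mean ± SD of 4 libraries each). Its log2 fold change (0.43, standard error 0.119) did not reach 0.5 with all libraries and was 0.556 and called without the 3 libraries. That fit leaves out untreated replicate 3, chosen for its low sum over these genes, so that the call is not an independent check. Scn1a went from 19.8 ± 2.40 to 25.0 ± 1.94 CPM (log2 fold change 0.34, standard error 0.121), and Scn3a, the embryonic Nav1.3, from 96.5 ± 9.32 to 119 ± 19.6 CPM (log2 fold change 0.30, standard error 0.139, adjusted p = 0.0665 from edgeR). The pores together had 349.6 ± 20.6 CPM at 6 h and 555 ± 86.3 CPM at 5 d.

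All 3 beta subunits of sodium channels were upregulated. Scn4b (ENSMUSG00000046480, chromosome 9, 45138395 to 45154152, forward strand), the subunit of resurgent sodium current, had the largest log2 fold change of the 37 genes and the lowest level. It had 0.169, 0.127, 0.123, and 0.5002 CPM at 6 h, from 4 to 19 counts, and 1.43, 0.585, 1.43, and 0.784 CPM at 5 d, from 28 to 86 counts. At 6 h, replicate 4 stands above the other untreated libraries, and the groups still do not overlap (log2 fold change 2.14, standard error 0.458, adjusted p = 0.000215, edgeR). Without single untreated libraries, its log2 fold change ranged from 1.95 to 2.94. Scn3b (ENSMUSG00000049281, chromosome 9, 40269217 to 40291618, forward strand) had 273, 232, 305, and 257 CPM at 6 h. Its level at 5 d was 406, 395, 343, and 382 CPM, without overlap. It was upregulated (log2 fold change 0.52, standard error 0.0898, adjusted p = 1.54e-05, edgeR), but without untreated replicate 2 at 6 h the log2 fold change was 0.46 and the call was lost. Scn2b rose from 21.1 ± 2.23 to 37.0 ± 2.65 CPM (log2 fold change 0.81, standard error 0.0991).

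The pore subunits of high-voltage-activated calcium channels differed in how far they moved. Cacna1e (ENSMUSG00000004110, chromosome 1, 154390731 to 154884501, reverse strand), the R-type channel Cav2.3, had 112, 84.2, 117, and 94.1 CPM at 6 h. At 5 d it had 214, 211, 151, and 277 CPM. Every library at 5 d was above every one at 6 h, with replicate 3 lowest and replicate 4 highest at 5 d (log2 fold change 1.07, standard error 0.193, adjusted p = 2.70e-05, edgeR). Cacna1a, the P/Q-type channel of synaptic terminals, rose from 66.2 ± 2.72 to 96.8 ± 16.8 CPM (log2 fold change 0.55, standard error 0.0971). Cacna1b (ENSMUSG00000004113, chromosome 2, 24603887 to 24763152, reverse strand) had 171, 136, 176, and 156 CPM at 6 h. The 5 d libraries had 212, 243, 166, and 261 CPM, where replicate 3 lies within the range of the 6 h libraries. Its log2 fold change (0.47, standard error 0.116) had an adjusted p of 0.00115 (edgeR) and lay just under 0.5, and it was called in 4 of the 8 fits that left out 1 untreated library, among them those without replicates 1 and 3 of either time point (0.53 to 0.58). Of these, the fit without replicate 3 at 5 d leaves out the library with the low channel sum and is not an independent check. The L-type genes, which couple depolarization to gene expression, were less far apart between the time points: Cacna1d went from 36.1 ± 3.17 to 48.4 ± 9.16 CPM (log2 fold change 0.42, standard error 0.125) and Cacna1c from 118 ± 10.2 to 127 ± 22.6 CPM (0.10, standard error 0.128, adjusted p = 0.544 from edgeR).

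The low-voltage-activated T-type channels, which open near rest and drive bursts, did not move together. Cacna1h (ENSMUSG00000024112, chromosome 17, 25374285 to 25433783, reverse strand) had 135, 110.4, 135, and 126 CPM at 6 h. Its level at 5 d was 81.1, 104, 61.9, and 102 CPM, with all 5 d libraries below all 6 h libraries and replicate 3 the lowest. It was downregulated (log2 fold change -0.54, standard error 0.106, adjusted p = 8.14e-05, edgeR), and the call was lost in 5 of 8 fits without 1 untreated library, namely those without replicates 1, 3, or 4 at 6 h or without replicates 1 or 3 at 5 d (log2 fold changes between -0.50 and -0.40). Cacna1i, the Cav3.3 channel, went from 54.7 ± 4.19 to 74.3 ± 19.8 CPM (log2 fold change 0.44, standard error 0.147), and Cacna1g, the Cav3.1 channel, from 54.3 ± 4.11 to 51.4 ± 11.4 CPM (-0.08, standard error 0.122, adjusted p = 0.613 from edgeR).

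Of the auxiliary calcium channel subunits, the alpha2delta proteins bring channels to the surface and Cav beta proteins fold and modulate them. Cacna2d3 rose from 61.0 ± 6.00 to 108 ± 7.10 CPM (log2 fold change 0.82, standard error 0.0767). Cacna2d1 (ENSMUSG00000040118, chromosome 5, 15934691 to 16374511, forward strand), the binding partner of gabapentin, had 232, 213, 186, and 198 CPM at 6 h. At 5 d it had 279, 323, 204, and 308 CPM, and replicate 3 at 5 d lay inside the 6 h range. Its log2 fold change (0.43, standard error 0.143) was under the minimum of 0.5, and it was called without that library (0.55) or without replicate 1 at 6 h (0.53). Replicate 3 at 5 d had a low sum over the channel genes, so that the call without it is not an independent check. Cacna2d2 went from 49.3 ± 7.89 to 62.3 ± 6.39 CPM (log2 fold change 0.34, standard error 0.119).

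The 4 Cav beta genes split. Cacnb3 (ENSMUSG00000003352, chromosome 15, 98630840 to 98644529, forward strand) had 188, 165, 209.6, and 191 CPM at 6 h. The 5 d libraries had 126, 151, 95.3, and 130.2 CPM, lower in every library. It was downregulated (log2 fold change -0.58, standard error 0.0926, adjusted p = 3.98e-06, edgeR), but the call was lost without replicate 3 at 6 h (-0.49) or replicate 3 at 5 d (-0.47), through the minimum fold change in both cases. Cacnb4 rose from 41.1 ± 0.854 to 70.0 ± 0.483 CPM (log2 fold change 0.77, standard error 0.111) and Cacnb2 from 10.1 ± 0.553 to 15.6 ± 2.19 CPM (0.62, standard error 0.0937). Cacnb1 went from 100.1 ± 6.76 to 86.6 ± 7.78 CPM and was lower at 5 d by less than the minimum (log2 fold change -0.21, standard error 0.0652, adjusted p = 0.00773 from edgeR). Summed over the 4 genes, the level was 339.8 ± 25.7 CPM at 6 h and 298 ± 28.2 CPM at 5 d, and Cacnb3 held the highest level of the 4 in CPM per kb at both time points.

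Among the potassium channels, the Kv3 subunits, which allow narrow spikes at high rates, showed the widest range. Kcnc4 (ENSMUSG00000027895, chromosome 3, 107438303 to 107459552, reverse strand), the Kv3.4 pore, had 9.30, 7.46, 11.03, and 9.45 CPM at 6 h. Its level at 5 d was 26.2, 29.6, 22.1, and 26.2 CPM. All 5 d libraries lie far above the 6 h libraries (log2 fold change 1.48, standard error 0.109, adjusted p = 1.89e-12, edgeR). Kcnc2 (ENSMUSG00000035681, chromosome 10, 112271121 to 112467024, forward strand), the Kv3.2 pore of interneurons, had 15.7, 15.5, 18.6, and 16.3 CPM at 6 h. At 5 d it had 34.0, 27.4, 31.1, and 25.1 CPM, without overlap (log2 fold change 0.83, standard error 0.125, adjusted p = 1.78e-06, edgeR). Kcnc1 (ENSMUSG00000058975, chromosome 7, 46396497 to 46438704, forward strand) had 76.5, 70.8, 76.8, and 80.6 CPM at 6 h. The 5 d libraries had 71.6, 84.7, 66.0, and 78.1 CPM. Here the groups overlap, and the log2 fold change was -0.02 with a 95% interval of -0.18 to 0.14, so that a change by the minimum of 0.5 lies outside the interval.

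**Figure D3:**
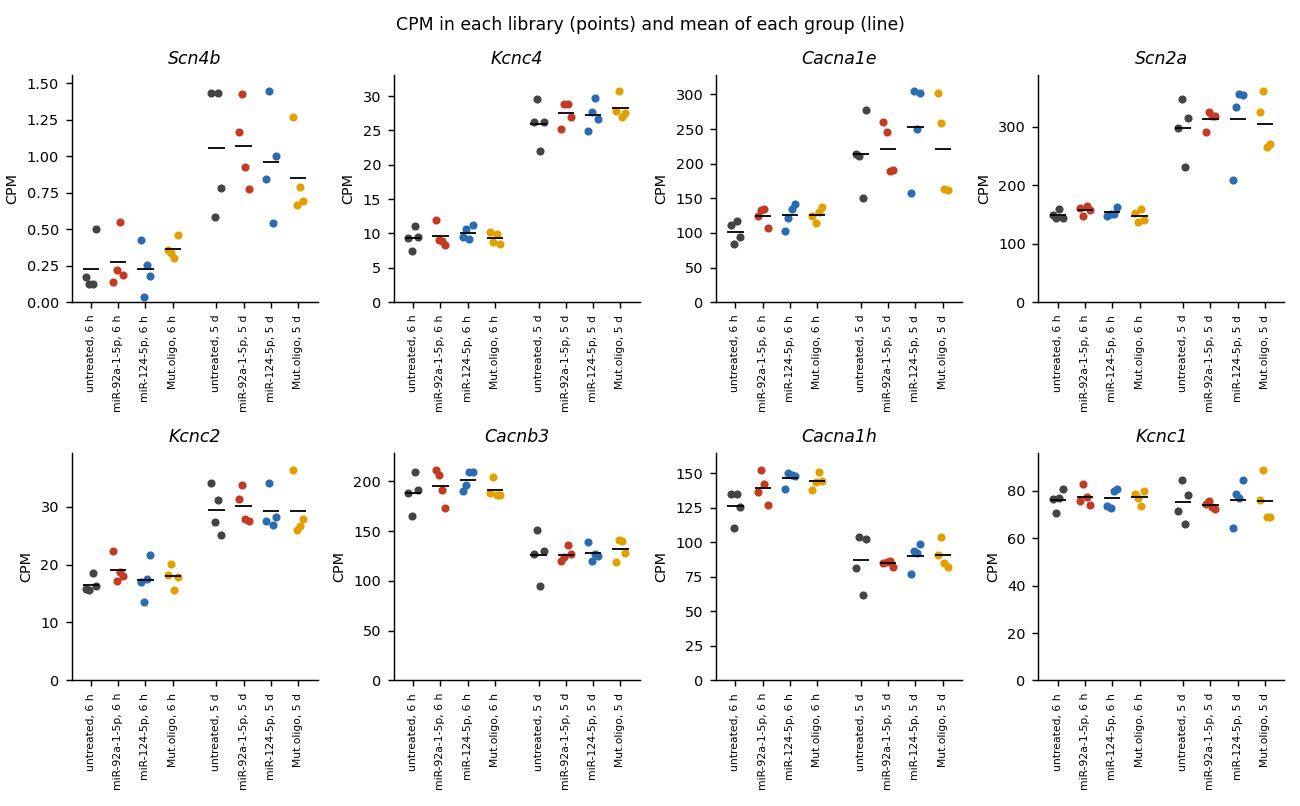
CPM of 8 channel genes in each of the 32 libraries (points), with the mean of each group as a line, at 6 h on the left and 5 d on the right of each panel. Scn4b, Kcnc4, Cacna1e, Scn2a, and Kcnc2 are higher and Cacnb3 and Cacna1h lower in every untreated library at 5 d, while the Kcnc1 groups overlap.

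The Kv1 and Kv2 subunits set threshold and repolarization. Kcna2 (ENSMUSG00000040724, chromosome 3, 107101146 to 107115005, forward strand) had 38.1, 45.9, 40.9, and 48.1 CPM at 6 h. Its level at 5 d was 60.6, 72.8, 66.5, and 65.0 CPM, without overlap (log2 fold change 0.61, standard error 0.125, adjusted p = 0.000125, edgeR). Kcna1, its frequent partner in axons, rose from 9.50 ± 1.78 to 13.7 ± 2.30 CPM (log2 fold change 0.53, standard error 0.220, adjusted p = 0.0443 from edgeR), close to the threshold. Its groups overlap, and the call was lost without replicates 3 or 4 at 6 h or replicates 1 or 2 at 5 d (log2 fold changes from 0.449 in the 8 fits without 1 untreated library). Kcnb2, the delayed rectifier Kv2.2, rose from 22.9 ± 1.20 to 35.9 ± 7.36 CPM (log2 fold change 0.65, standard error 0.150), while Kcna4, the A-type Kv1.4, went from 17.5 ± 1.53 to 17.9 ± 1.42 CPM (0.04, standard error 0.111).

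Of the Kv4 genes, Kcnd2 (ENSMUSG00000060882, chromosome 6, 21215503 to 21729805, forward strand) had 78.4, 82.8, 75.6, and 86.2 CPM at 6 h. At 5 d it had 76.2, 87.5, 92.5, and 78.3 CPM, with overlapping groups and a 95% interval of -0.10 to 0.20 around a log2 fold change of 0.05. Kcnd3, the Kv4.3 pore, went from 106 ± 1.37 to 134 ± 7.05 CPM, higher in every library, (log2 fold change 0.33, standard error 0.0706, adjusted p = 0.000197 from edgeR), below the minimum fold change.

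The Kv7 and EAG families held no called gene in untreated neurons. Kcnq3 (ENSMUSG00000056258, chromosome 15, 65986387 to 66286642, reverse strand) had 128, 164, 141, and 125 CPM at 6 h. The 5 d libraries had 162, 246, 103, and 201 CPM. The groups overlap, since replicate 3 at 5 d lies below every 6 h library (log2 fold change 0.35, standard error 0.225, adjusted p = 0.196 from edgeR). Without that library it was 0.54 and called, and without all 3 libraries named above 0.56. Both fits leave out a library with a low sum over the channel genes, so that they are not an independent check. Kcnq5 went from 75.5 ± 8.61 to 90.6 ± 12.3 CPM (log2 fold change 0.26, standard error 0.145), Kcnh1, the EAG channel, from 18.3 ± 2.06 to 21.9 ± 4.62 CPM (0.26, standard error 0.132), and Kcnh7, an ERG channel, from 45.6 ± 1.76 to 46.1 ± 6.97 CPM (0.02, standard error 0.147).

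Kcnma1, the calcium-activated BK channel, rose from 58.9 ± 2.00 to 84.7 ± 15.96 CPM (log2 fold change 0.53, standard error 0.174, adjusted p = 0.0115 from edgeR), and lost the call without replicates 2 or 4 at 5 d (lowest log2 fold change 0.480). Hcn2 (ENSMUSG00000020331, chromosome 10, 79716634 to 79736108, forward strand) had 52.5, 44.6, 48.1, and 55.1 CPM at 6 h. Its level at 5 d was 54.1, 53.6, 47.8, and 47.4 CPM, with a log2 fold change of 0.02 and a 95% interval of -0.13 to 0.17.

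Cell type markers moved between the same libraries. The 8 astrocyte markers summed to 445 to 742 CPM in untreated libraries at 6 h and to 1862 to 3110 CPM at 5 d, and 8 of 8 were upregulated. Of 6 markers of glutamatergic neurons, 4 were downregulated and 1 upregulated, and their sum went from 1154 to 1290 CPM at 6 h to 498 to 929 CPM at 5 d. Of 8 general neuronal markers, 1 was upregulated and 2 downregulated (6316 to 7073 CPM at 6 h, 5152 to 7657 CPM at 5 d), and of 12 GABAergic markers 3 and 5 (1050 to 1123 and 877 to 1195 CPM). Microglial markers summed to 8.48 to 17.2 CPM at 6 h and 11.8 to 21.5 CPM at 5 d (2 of 8 upregulated), and endothelial and mural markers to 12.9 to 19.8 and 15.4 to 30.0 CPM (3 upregulated and 1 downregulated of 8). Of the oligodendrocyte lineage, 3 of 8 markers were downregulated (159 to 287 CPM at 6 h, 169 to 203 CPM at 5 d), as were 3 of 7 markers of cycling cells and radial glia (472 to 684 and 327 to 487 CPM). In bulk RNA, fewer cells of a type and less RNA per cell cannot be told apart, and the part of these markers in the channel values was not tested.

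The time points were compared in the exposed neurons with separate libraries. There, 15, 14, and 16 channel genes were upregulated in the exposed groups, and 2 were downregulated in each group, where 34.1%, 34.2%, and 34.1% of all tested genes were called in either direction. The upregulated genes called in all 4 groups were 12, namely Cacna1a, Cacna1e, Cacna2d3, Cacnb2, Cacnb4, Kcna1, Kcnc2, Kcnc4, Scn2a, Scn2b, Scn3b, and Scn4b, and the downregulated ones were Cacna1h and Cacnb3. The share of all tested genes called in all 4 groups is not given here, so that these shared calls cannot be set against it. For Kcnc4, the log2 fold changes were 1.53, 1.43, and 1.60 in the exposed groups. They were 0.83, 1.02, and 0.81 for Cacna1e, -0.72, -0.70, and -0.67 for Cacna1h, and -0.63, -0.65, and -0.53 for Cacnb3. Without miR-124-5p replicate 1 at 5 d, the miR-124-5p count was 19 upregulated and 2 downregulated. The share of all genes in that fit is not given here, so that this count cannot be set against it.

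Whether the difference from untreated differed between 5 d and 6 h was tested for each oligoribonucleotide. For each of them, 0 channel genes were called by edgeR and 0 by DESeq2, and 0% of all genes in edgeR. The share of all genes in DESeq2 is not given here. At an unadjusted p under 0.05 there were 1, 0, and 2 of 37, against 3.92%, 2.64%, and 5.55% of all genes. These were Hcn2 for miR-92a-1-5p (0.23 on the log2 scale) and Hcn2 (0.21) and Kcna4 (0.40) for Mut.oligo. The 95% interval of this difference lay within 0.5 of 0 on the log2 scale for 19, 27, and 22 of the 37 genes. For the others, the interval does not exclude a difference of that size.

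After 6 h, 0 of 37 channel genes were called in any of the 3 comparisons with untreated neurons, or when either miRNA was compared with Mut.oligo, by edgeR and by DESeq2. In edgeR, 0% of all 18755 genes were called. The log2 fold changes against untreated ranged from -0.28 to 0.29 for the first, from -0.25 to 0.31 for the next, and from -0.34 to 0.63 for Mut.oligo. The value of 0.63 was that of Scn4b, the gene with the fewest counts. The 95% interval lay within 0.5 of 0 for 33, 34, and 33 of the 37 genes. At an unadjusted p under 0.05 there were 7, 5, and 8 channel genes (18.9%, 13.5%, and 21.6% of 37), against 4.75%, 4.54%, and 9.49% of all genes, and none of them passed the adjustment. They were Cacna1c, Cacna1d, Cacna1e, and Cacna1h in all 3 comparisons, with Kcna4, Kcnb2, and Kcnq3 for the first, Scn8a for the second, and Kcna4, Kcnd2, Cacnb2, and Scn8a for the third, genes picked out here by these values. The comparisons share the same 4 untreated libraries. Against Mut.oligo, 0 channel genes of miR-92a-1-5p had such a p, and for miR-124-5p they were 2, Scn1a (log2 fold change 0.32) and Cacnb2 (0.17), with 2.12% and 3.58% of all genes.

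The channel genes with the smallest p at 6 h were calcium channel pores. Cacna1d (ENSMUSG00000015968, chromosome 14, 30039939 to 30491455, reverse strand), the L-type channel Cav1.3, had 35.2, 33.6, 40.8, and 34.9 CPM in untreated neurons. With miR-92a-1-5p it had 43.5, 42.0, 45.9, and 40.1 CPM, with miR-124-5p 37.3, 38.9, 44.2, and 46.2 CPM, and with Mut.oligo 45.3, 39.1, 42.7, and 46.3 CPM. Only untreated replicate 3 reaches into the range of the exposed libraries. The log2 fold changes were 0.25, 0.22, and 0.28 (standard errors 0.0771, 0.0776, and 0.0779), with adjusted p of 0.999, 1.000, and 0.313 (edgeR). For Cacna1e, the exposed libraries had 124.4, 133, 134, and 107 CPM with miR-92a-1-5p, 103, 121, 135, and 142 CPM with miR-124-5p, and 125, 114, 129.5, and 137 CPM with Mut.oligo, beside the untreated values given above. The ranges overlap, and the log2 fold changes were 0.29, 0.31, and 0.34 (standard errors 0.109 each, unadjusted p from 0.00709 to 0.0155 by edgeR's test).

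Cacna1c (ENSMUSG00000051331, chromosome 6, 118587240 to 119196418, reverse strand), the L-type channel Cav1.2, had 126, 105, 127, and 117 CPM in untreated neurons. With miR-92a-1-5p it had 127, 152, 144, and 121 CPM, with miR-124-5p 122, 128, 150.4, and 141 CPM, and with Mut.oligo 135, 138, 137, and 146 CPM. All 4 Mut.oligo libraries lie above the untreated ones, whereas the other exposed groups overlap with them. The log2 fold change with Mut.oligo was 0.26 (standard error 0.0789, adjusted p = 0.374 from edgeR). Cacna1h had 136, 153, 142, and 127 CPM with miR-92a-1-5p, 139, 150.5, 149, and 148 CPM with miR-124-5p, and 138, 143, 151, and 144 CPM with Mut.oligo. The libraries of miR-124-5p and Mut.oligo are all above the untreated ones, by log2 fold changes of 0.22 and 0.21 (standard errors 0.0642 and 0.0643, adjusted p = 1.000 and 0.374 from edgeR), and neither passed.

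**Figure D4:**
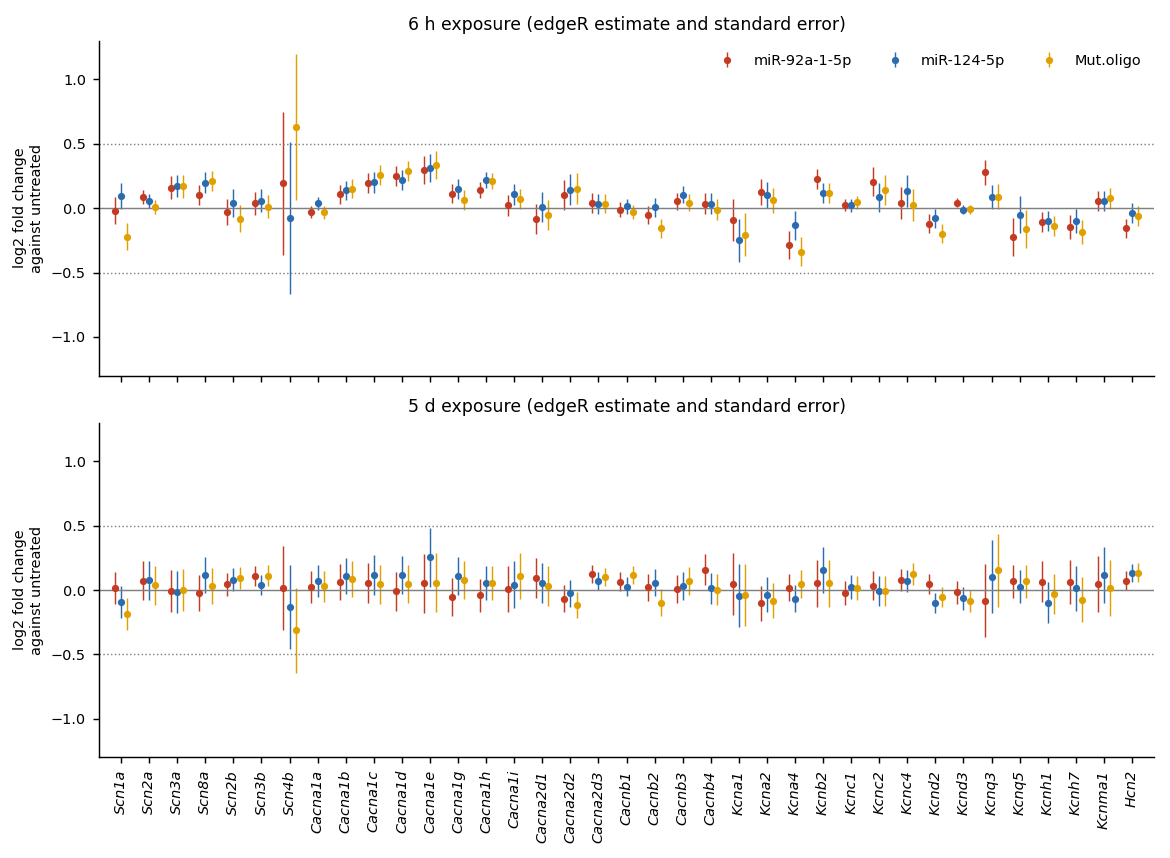
Log2 fold change of each channel gene against untreated neurons after 6 h (top) and 5 d (bottom), with 1 point and standard error per oligoribonucleotide (edgeR, 4 libraries per group) and dotted lines at 0.5 and -0.5. Apart from Scn4b with Mut.oligo at 6 h, whose standard error spans 0.5, all points lie between the dotted lines.

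The log2 fold changes at 6 h differed between long and short genes, and many channel genes are long. In the 3 comparisons with untreated, the 23 channel genes with exons over 8000 bases had median log2 fold changes of 0.09, 0.10, and 0.07, and the 14 shorter ones -0.02, -0.01, and -0.05. Among the other protein-coding genes, the medians were 0.03, 0.02, and 0.04 for 2676 genes over 8000 bases, and -0.04, -0.03, and -0.04 for 2004 genes under 2000 bases. The part of transcript length in the channel values was not tested.

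The 4 untreated libraries at 6 h share their experiment batches with the 4 libraries of miR-92a-1-5p, 1 of each per batch (their replicate numbers do not follow the batches). Within these pairs, 11 of the 37 channel genes were higher with miR-92a-1-5p in 4 of 4 batches and 7 were lower in 4 of 4, against 12.3% and 12.1% of all genes. With the experiment batch as a covariate, 3 channel genes had an adjusted p under 0.05 (edgeR), against 1.06% of all genes, and 0 reached the minimum fold change. Kcnq3 had 128, 164, 141, and 125 CPM in untreated neurons and 168, 159.9, 158, and 190.4 CPM with miR-92a-1-5p. In the pairs of a batch the log2 difference was 0.21 to 0.34, and the log2 fold change with the covariate was 0.28 (standard error 0.0425, adjusted p = 0.00639), by edgeR, against 0.28 (standard error 0.0942) without it. For Cacna1d, the differences within batches were 0.09 to 0.39 and the log2 fold change with the covariate 0.25 (standard error 0.0544, adjusted p = 0.0372), and for Cacna1e they were 0.09 to 0.51 and 0.30 (standard error 0.0675, adjusted p = 0.0422), both by edgeR. All 3 genes were higher in 4 of 4 batches. With DESeq2 and the covariate, 4 channel genes passed (Kcnq3, Cacna1d, Cacna1c, and Kcnq5). The share of all genes in that DESeq2 fit is not given here, so that this count cannot be set against it. Without Mut.oligo replicates 2 and 3, the same fit gave 14 channel genes of miR-92a-1-5p with an adjusted p under 0.05, 9 higher and 5 lower, against 5.00% of all genes, and still 0 past the minimum. The 5 lower genes were Kcna4, Kcnq5, Hcn2, Kcnh7, and Kcnd2, with log2 fold changes of -0.28 to -0.13. The 9 higher genes were Cacna1c, Cacna1d, Cacna1e, Cacna1h, Kcna2, Kcnb2, Kcnc2, Kcnq3, and Scn3a, with 0.12 to 0.30.

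**Figure D5:**
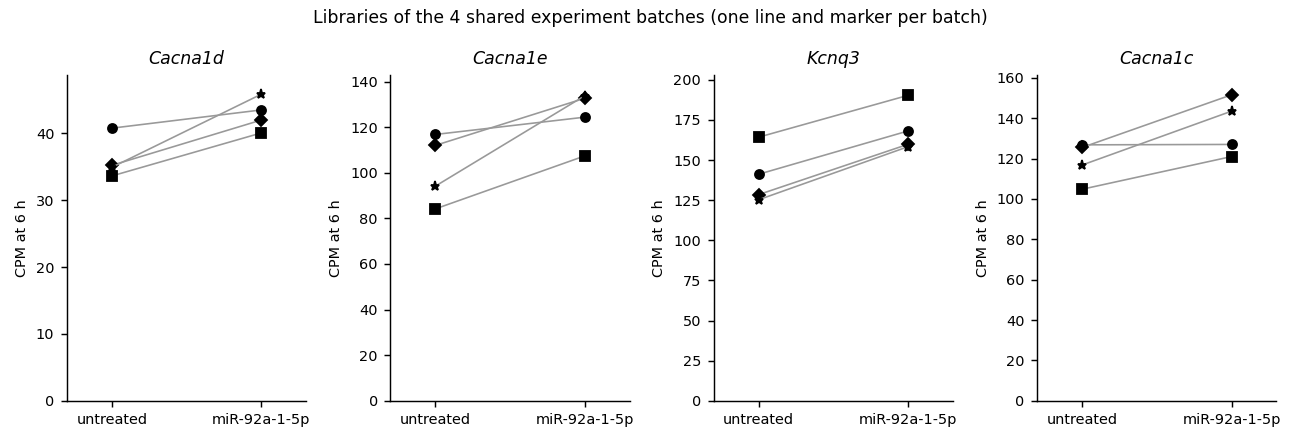
CPM of Cacna1d, Cacna1e, Kcnq3, and Cacna1c at 6 h in the untreated and the miR-92a-1-5p library of each of the 4 shared experiment batches, joined by a line. The level was higher with miR-92a-1-5p in 4 of 4 batches for each gene, and for Cacna1c the 2 libraries of 1 batch were nearly level.

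With the covariate, the smallest adjusted p among the channel genes at 6 h was 0.798 for miR-124-5p and 0.175 for Mut.oligo (edgeR). For Mut.oligo that gene was Cacna1d with a log2 fold change of 0.29. Mut.oligo replicate 4 is the only library of its batch, so that without replicates 2 and 3 this comparison would rest on 1 Mut.oligo library, and its values are not given.

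After 5 d, 0 of 37 channel genes were called against untreated neurons or against Mut.oligo, by edgeR and by DESeq2. In edgeR, 1 gene of the whole table was called for miR-92a-1-5p against untreated, 0.00517% of 19333, and 0% in the other comparisons. At an unadjusted p under 0.05 there were 0 channel genes in each of the 3 comparisons with untreated, where all genes gave 3.63% with miR-92a-1-5p, 2.60% with miR-124-5p, and 2.79% with Mut.oligo, and 0 in both comparisons with Mut.oligo (1.98% and 1.68% of all genes). The 95% interval of the log2 fold change against untreated lay within 0.5 of 0 for 32 genes with miR-92a-1-5p, 31 with miR-124-5p, and 33 with Mut.oligo. For the remaining genes, the interval does not exclude a change of that size.

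The genes with the smallest p at 5 d moved by little. Hcn2 had 48.8, 55.1, 55.8, and 53.8 CPM with miR-92a-1-5p, 60.3, 55.8, 50.4, and 55.0 CPM with miR-124-5p, and 51.8, 56.2, 60.0, and 54.3 CPM with Mut.oligo, beside 47.4 to 54.1 CPM in untreated neurons. The groups overlap, and the log2 fold change with Mut.oligo was 0.13 (standard error 0.0725, 95% interval -0.02 to 0.29). Cacna2d3 (ENSMUSG00000021991, chromosome 14, 28904943 to 29721864, reverse strand) had 117, 99.9, 109.8, and 105 CPM in untreated neurons and 102, 126, 120.1, and 123 CPM with miR-92a-1-5p. It had 104, 120.1, 115, and 112 CPM with miR-124-5p and 120.0, 109, 116, and 118 CPM with Mut.oligo. All groups overlap (log2 fold change 0.12 with miR-92a-1-5p, 95% interval -0.02 to 0.27). Its adjusted p with the experiment batch as a covariate was 0.337 for miR-92a-1-5p (edgeR), the smallest of the channel genes in that fit.

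Cacnb1 (ENSMUSG00000020882, chromosome 11, 98001508 to 98023034, reverse strand) had 86.7, 96.4, 77.4, and 86.1 CPM in untreated neurons at 5 d, with 85.0, 90.7, 97.4, and 89.9 CPM after miR-92a-1-5p. It had 85.1, 87.3, 93.7, and 85.7 CPM after miR-124-5p and 87.1, 99.7, 96.7, and 91.2 CPM after Mut.oligo, and all groups overlap. The log2 fold change with Mut.oligo was 0.12 (95% interval -0.04 to 0.27). Scn1a (ENSMUSG00000064329, chromosome 2, 66270778 to 66440840, reverse strand) had 23.8, 26.3, 22.9, and 26.9 CPM in untreated neurons and 24.7, 25.1, 25.2, and 26.3 CPM after miR-92a-1-5p. It had 16.1, 26.6, 24.5, and 26.4 CPM after miR-124-5p and 24.2, 23.6, 18.7, and 21.1 CPM after Mut.oligo. Replicate 1 of miR-124-5p is the lowest of the 16, and the log2 fold change with Mut.oligo was -0.19 (95% interval -0.45 to 0.07). Without the 3 libraries named above, 0 channel genes were called in any comparison between groups at 5 d (edgeR).

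The balance of higher and lower values over the 37 genes at 5 d differed between fits. With miR-92a-1-5p, 27 of them lay above 0 against untreated (median log2 fold change 0.04), 33 when the experiment batch was a covariate (0.10), and 13 without the 3 libraries (-0.03). With miR-124-5p these numbers were 26, 35, and 32 (medians 0.04, 0.10, and 0.08), and with Mut.oligo 26, 10, and 19 (0.04, -0.03, and 0.00). Leaving out untreated replicate 3, chosen for its low channel sum, lowers the values with miR-92a-1-5p by construction. The share of all genes above 0 in these fits is not given here. A shift of all genes can therefore not be told apart from one of the channel genes.

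The genes around these channels were read from a list of 81 other channel subunits and partners of the axon initial segment, of which 80 were found and 75 passed the filter over both time points. In untreated neurons, 30 of 75 were upregulated between 6 h and 5 d and 4 downregulated, with a median log2 fold change of 0.48. Of all tested genes, 19.1% were upregulated and 14.3% downregulated. By subgroup, 5 of 7 other sodium channel genes, 3 of 11 other calcium channel genes, 8 of 26 other Kv pore genes, 6 of 11 Kv auxiliary genes, 5 of 11 other BK, SK, slack, and HCN genes, and 3 of 9 partners of the initial segment were upregulated. Kcnmb4, the neuronal beta subunit that partners with the BK channel Kcnma1, rose from 4.62 ± 0.341 to 29.1 ± 4.85 CPM (SD, n = 4 each; log2 fold change 2.66, standard error 0.124, adjusted p = 4.52e-17 from edgeR). The log2 fold changes of Scn10a and Kcnv2 were larger, but they had 0 to 2 counts in each untreated library at 6 h, at or under the floor, and means of 0.207 ± 0.0958 and 0.147 ± 0.0348 CPM at 5 d. The largest falls were those of Cacng1, from 1.26 ± 0.569 to 0.266 ± 0.138 CPM, and Kcnh8, from 6.21 ± 0.795 to 1.81 ± 0.303 CPM, both lower in every library.

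In the exposed neurons, 34 of these 75 genes were upregulated and 4 downregulated from 6 h to 5 d with miR-92a-1-5p, 29 and 5 with miR-124-5p, and 34 and 4 with Mut.oligo. Of all tested genes, 34.1%, 34.2%, and 34.1% were called in either direction in these groups. The log2 fold changes of Kcnmb4 there were 2.60, 2.68, and 2.75 and those of Kcnh8 -1.73, -1.72, and -1.59, both genes with at least 95 counts in each exposed library at 6 h. In the 5 comparisons between groups at 6 h, 0 of the 69 listed genes tested were called, and at 5 d 0 of 73, with a smallest adjusted p of 0.321 for Mut.oligo against untreated at 6 h (edgeR). The paper, which used DESeq2, names Cacng5, a gene of this list, as downregulated by both miRNAs after 6 h. DESeq2 results for the listed genes are not given here.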

How the data were processed

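The authors mapped single-end reads of stranded mRNA libraries to GRCm38 (GENCODE M12) with STAR and counted reads on exons by strand with featureCounts, and deposited these counts per Ensembl gene without normalization. All 32 columns were matched to a sample by name, and 0 were left over. Symbols and exon lengths came from GENCODE M21. No 2 replicates were identical (chi-square per degree of freedom at least 6.60 over 48 pairs).

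Genes that reached 5 counts in 3 or more libraries were tested with edgeR 4.0.16 in R 4.3.3 (TMM, quasi-likelihood test, no covariate, Benjamini-Hochberg over all genes), for each time point with 16 libraries, and over all 32 for the changes between time points. The study's methods name DESeq2, here 1.42.0 as an alternative beside RLE factors, other filters, batch and replicate covariates, fits of 2 groups, and left-out libraries. Scripts were tested on simulated data. CPM use TMM factors over 32 libraries. Intervals use the fit's degrees of freedom.

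Values in every library are given for the 4 genes with the smallest p per time point, the up to 5 largest called rises and falls in untreated neurons, and the highest gene per kilobase of each of 11 subfamilies. The members and lists were chosen with earlier results of these data known.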

Additional observations from a re-analysis of the deposited data

Results flagged for a closer look

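In 160 sets of 4 libraries (20 channel genes with values per library in 8 groups), 10 had 1 library far from the other 3 (the gap to the nearest library over the whole range, compared with Dixon's 95% critical value), where chance gives about 5% of sets. Of these 10, 6 concern replicate 1 of miR-124-5p at 5 d, the library in which long genes were low. It had 37.1 CPM of Cacna1d (the others 56.2 to 58.9 CPM), 95.4 CPM of Cacna1c (149.4 to 154.1 CPM), 208.5 CPM of Scn2a (333 to 355 CPM), 177 CPM of Cacna1b (254 to 262 CPM), 46.8 CPM of Kcna2 (68.1 to 71.4 CPM), and 86.1 CPM of Kcnq3 (217 to 240.5 CPM). Without this library, 0 channel genes were called against untreated at 5 d, and the median log2 fold change over the 37 genes was 0.12 against 0.04 with it.

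Scn4b in untreated replicate 4 at 6 h was high at 0.5002 CPM beside 0.123 to 0.169 CPM in the others, all from under 20 counts. Kcnc2 in Mut.oligo replicate 1 at 5 d was high at 36.4 CPM (26.0 to 27.8 CPM). At 6 h, Cacnb3 was high in Mut.oligo replicate 2 at 203.8 CPM (186 to 188 CPM) and Cacna2d1 in Mut.oligo replicate 3 at 248 CPM (175 to 182 CPM).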

How the results depend on the processing

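In the 10 comparisons between groups and the 3 differences between time points, 0 channel genes were called under any alternative that was run. Changes between time points kept a count within 1.5 times under each alternative except one: without a minimum fold change, the counts were 26 in untreated neurons, 28 with miR-92a-1-5p, and 26 with miR-124-5p. Leaving out 1 library gave 15 to 21 called genes in untreated neurons, 16 to 20 with miR-92a-1-5p, 15 to 21 with miR-124-5p, and 15 to 20 with Mut.oligo. Without untreated replicate 3 at 5 d, 21 were upregulated and 0 downregulated, and without untreated replicate 3 at 6 h 16 and 0. For the fits with left-out libraries, the shares of all genes are not given here. Of the single genes, those near 0 changed sign. Kcnc1 was 0.005 without the filter on low counts. It was 0.059 without the 3 libraries left out at 5 d (chosen after the data were seen). When single libraries were left out, Kcnc1 was -0.054 to 0.048, Kcnd2 -0.003 to 0.13, and Hcn2 -0.033 to 0.11.

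With the replicate number as a block, 0 genes were called between groups and 17, 17, 16, and 17 between time points in untreated neurons and the 3 exposed groups. Same-numbered libraries of different groups correlated between -0.399 and 0.475 at 6 h (median -0.129) and between -0.399 and 0.689 at 5 d (median 0.207), and 1 of 16 and 5 of 16 libraries were most like one of their own number. Of the 24 same-numbered pairs per time point, 2 at 6 h and 13 at 5 d shared an experiment batch, so that the number stands in part for the batch at 5 d, and the pairing was not used. The fit with the experiment batch could not be made for changes between time points. Only 4 libraries per group limit what can be detected.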
